A study of Homo sapiens with 6 samples.

Results

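The IL-1 family cytokines and the inflammasome were followed through 10 genes of one RNA sequencing table with 58302 gene entries. They were taken by name: the cytokines IL1A, IL1B and IL18, the receptor antagonist IL1RN, the sensors NLRP1, NLRP3 and NLRP10, the caspases CASP1 and CASP4, and the pore-forming protein GSDMD. All 10 had an entry and passed the filter on low counts, among 15063 genes tested. The cells were Ker-CT, a single line of human keratinocytes made immortal by telomerase and CDK4. The 3 siKMT2C libraries came from cells given siRNA against KMT2C, a histone H3 lysine 4 methyltransferase, and the 3 siNC libraries from cells given a negative-control siRNA. All 6 samples were exposed for 24 h to M5, a psoriasis-type mixture of the cytokines TNF-α, IL-17A, oncostatin M, IL-22 and IL-1α, every one at 10 ng/ml. No unstimulated sample was analysed here, so every level is a level under cytokines, one of which was IL-1α protein itself. The labels do not say whether replicates came from separate cultures, and p-values then measure only the spread between these libraries, which may be technical.

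IL-1α and IL-1β bind the same receptor and switch on NF-κB and MAP kinase signalling, and the receptor antagonist competes with them for it. IL-1α is active as its full-length precursor and is stored in keratinocytes, whereas the precursors of IL-1β and IL-18 need cleavage, classically by caspase-1. Inflammasomes are protein assemblies in which a sensor activates caspase-1, which also cuts gasdermin D into a fragment that opens pores in the cell membrane. NLRP1 is regarded as the chief inflammasome sensor of human keratinocytes. RNA levels report none of the cleavage, assembly or release steps.

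The libraries held 14409277 to 17539519 counts. KMT2C itself (ENSG00000055609, chr7:152134922-152436005, GRCh38) was at 27.3 to 32.0 CPM (counts scaled to library size, here with TMM factors) in siKMT2C, against 72.6 to 87.9 CPM in siNC (log2 fold change -1.43, SE 0.14, n = 3 per group, edgeR adjusted p = 0.00786). Leaving out siKMT2C replicate 1 gave an edgeR adjusted p of 0.0634 for KMT2C, leaving out siNC replicate 2 gave 0.0593, and leaving out siKMT2C replicate 2 gave 0.0507. All 12 keratinocyte markers were tested, with a summed level of 19347 to 26249 CPM in siKMT2C and 19751 to 29359 CPM in siNC, and none was called (4 had an unadjusted edgeR p under 0.05). Their log2 fold changes were positive for 3 and negative for 9, with a median of -0.30. Without overlap between the groups, 1 was higher and 3 were lower in siKMT2C, beside 24.1% of all genes tested without overlap. Their part in the results was not tested. Of 12 myeloid markers, which matter here because NLRP3 and IL1B are strongly expressed in myeloid cells, 6 had no count in any library, among them PTPRC, SPI1 and CYBB, and the list summed to 13.4 to 14.9 CPM in siKMT2C and 10.0 to 15.1 CPM in siNC. That sum was mostly CD68, at 12.7 to 14.4 CPM in siKMT2C and 8.64 to 13.5 CPM in siNC. CD14, the other myeloid marker tested, had 3, 5 and 2 counts in siKMT2C, against 17, 14 and 19 in siNC, without overlap (log2 fold change -2.23, SE 0.43, edgeR adjusted p = 0.0534). Its part in the results was not tested. The 8 fibroblast markers, none of them at 0 throughout, summed to 13.7 to 17.7 CPM in siKMT2C and 21.1 to 31.5 CPM in siNC. This sum was mostly COL1A1, at 10.0 to 11.2 CPM in siKMT2C and 14.9 to 22.6 CPM in siNC. Of the 4 fibroblast markers tested none was called, with 1 positive and 3 negative log2 fold changes. The unadjusted edgeR p was under 0.05 for 2 of the 4, DCN and COL1A1, beside 16.9% of all genes tested. These 2 were also lower in siKMT2C without overlap, beside 24.1% of all genes tested without overlap. DCN had 24, 13 and 14 counts in siKMT2C, against 64, 46 and 46 in siNC (log2 fold change -1.57, SE 0.32, edgeR adjusted p = 0.0589). The part of the fibroblast markers in the results was not tested. Melanocyte markers, 2 of 6 at 0 throughout, summed to 6.97 to 8.93 CPM in siKMT2C and 7.96 to 15.7 CPM in siNC, and T-cell markers, 4 of 6 at 0 throughout, to 0.184 to 0.367 CPM in siKMT2C and 0.172 to 0.450 CPM in siNC. Fewer cells of a type and less RNA per cell cannot be told apart in bulk RNA.

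Of the 10 genes, NLRP3 rose in siKMT2C and none fell (edgeR, adjusted p under 0.05). Across all genes tested, 1.5% were called, 0.69% higher and 0.81% lower. The unadjusted p was under 0.05 for 4 of the 10 genes, and for 16.9% of all genes tested. The siKMT2C and siNC libraries did not overlap in CPM for 4 of the 10 genes, NLRP3 and CASP4 being higher and IL1B and IL1RN lower in siKMT2C. The same held for 24.1% of all genes tested. The log2 fold change was positive for 7 genes and negative for 3, with a median of 0.12, beside a median of -0.0025 over all genes tested.

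**Figure D1:**
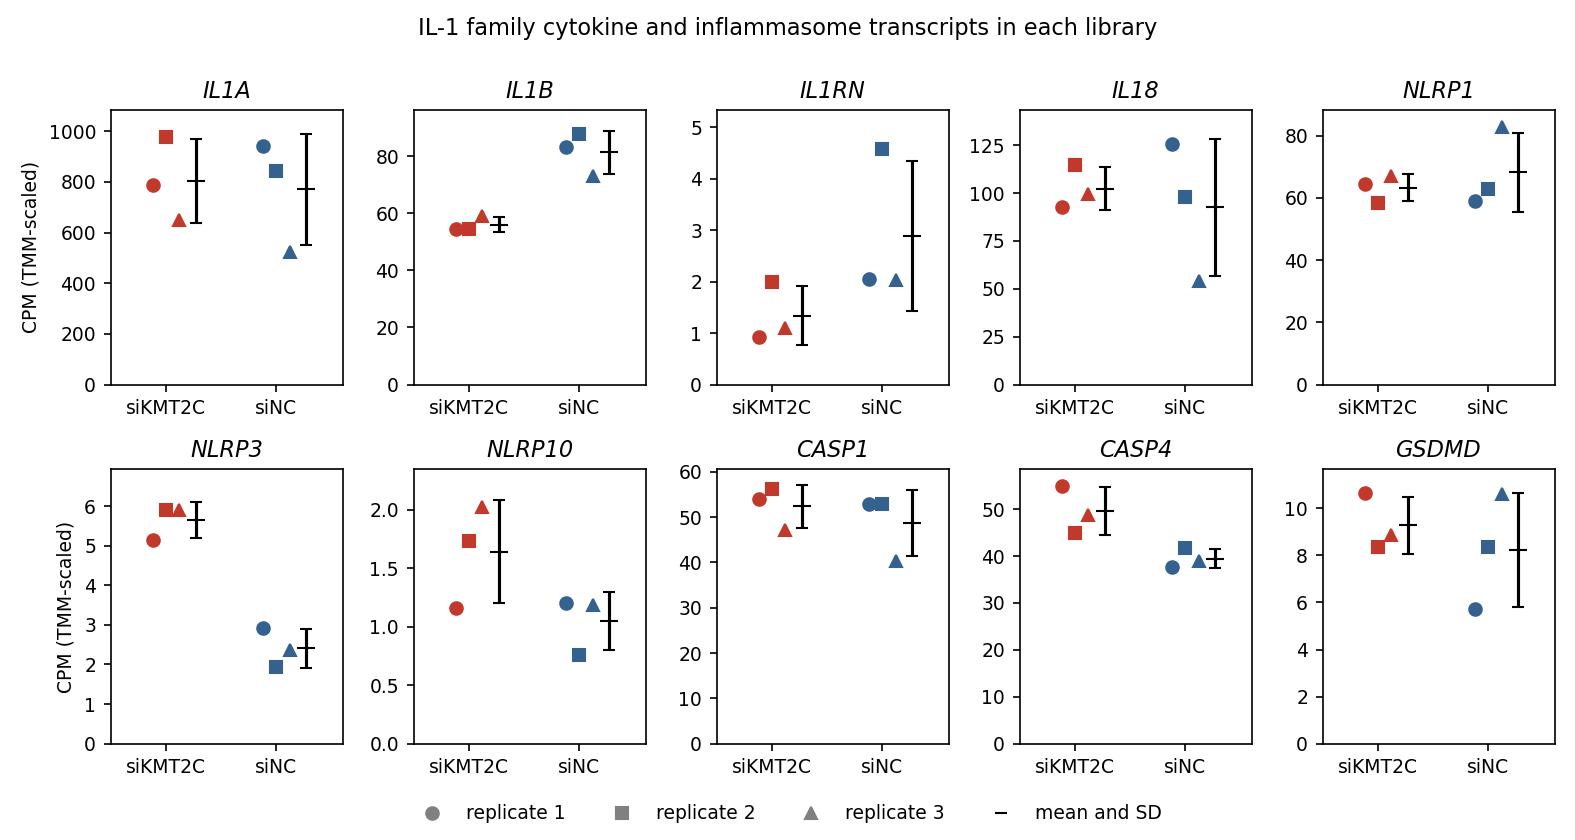
CPM of each of the 10 genes in each library, on linear axes from 0, with siKMT2C in red and siNC in blue. Symbols mark the replicate, and the black bar is the mean with its SD over 3 libraries. NLRP3 lies between 5.14 and 5.91 CPM in siKMT2C and between 1.94 and 2.92 CPM in siNC.

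IL1A (ENSG00000115008, chr2:112773915-112784590, minus strand), which encodes IL-1α, stood at 785.8, 977.4 and 647.9 CPM in siKMT2C, against 943.0, 844.4 and 524.4 CPM in siNC. The groups overlapped, and the lowest siNC value was that of replicate 3. Its mean was 803.7 ± 165.5 CPM in siKMT2C and 770.6 ± 218.8 CPM in siNC (SD, n = 3 each). On the log2 scale siKMT2C differed from siNC by 0.06 (SE 0.24, edgeR adjusted p = 0.933), with a 95% interval of 0.713-fold to 1.53-fold. The sign turned without siNC replicate 3 (-0.16) and after correction for GC content and transcript length (-0.047).

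IL1B (ENSG00000125538, chr2:112829751-112836903, minus strand), the gene of IL-1β, stood at 54.4, 54.5 and 58.9 CPM in siKMT2C, against 83.0, 87.9 and 72.9 CPM in siNC. Every siKMT2C library was below every siNC library, and the siKMT2C values lay close together. The mean was 55.9 ± 2.59 CPM in siKMT2C and 81.3 ± 7.64 CPM in siNC (SD, n = 3 each), or 68.8% of the siNC level (95% interval 55.9% to 84.7%). With a log2 fold change of -0.54 (SE 0.13), IL1B ranked 539th by p and did not pass over all genes (edgeR adjusted p = 0.0907). It passed without siNC replicate 3 (-0.62, edgeR adjusted p = 0.0321), with DESeq2 (-0.54, DESeq2 adjusted p = 0.0225) and after the GC and length correction (-0.63, edgeR adjusted p = 0.00748).

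IL1RN (ENSG00000136689, chr2:113107214-113134016, plus strand) encodes the IL-1 receptor antagonist. It had 15, 31 and 18 counts in siKMT2C, against 36, 66 and 36 in siNC. Replicate 2 was the highest library in both groups, and the groups just missed each other: the highest siKMT2C library stood at 1.99 CPM and the lowest siNC library at 2.03 CPM. The mean was 1.34 ± 0.574 CPM in siKMT2C and 2.89 ± 1.46 CPM in siNC (SD, n = 3 each), 46.8% of the siNC level. This log2 fold change of -1.10 (SE 0.44, 95% interval -2.12 to -0.07) did not pass (edgeR adjusted p = 0.263), and it was -0.61 without siNC replicate 2. Counting error alone, over 64 counts in siKMT2C and 138 in siNC, gives a ratio of 0.478 with an exact 95% interval of 0.350 to 0.648, narrower than the interval that includes the spread between libraries.

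IL18 (ENSG00000150782, chr11:112143251-112164117, minus strand), whose product keratinocytes hold as a precursor, stood at 92.7, 114.6 and 99.3 CPM in siKMT2C, against 125.5, 97.9 and 54.3 CPM in siNC. The siNC libraries spanned the whole siKMT2C range. IL18 had a log2 fold change of 0.14 (SE 0.28, 95% interval -0.50 to 0.78, edgeR adjusted p = 0.850), and without siNC replicate 3 it was -0.14. A protein-coding entry on the opposite strand, AP002884.3, overlaps IL18 and held 94 counts over all libraries beside 9490 for IL18.

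NLRP3 (ENSG00000162711, chr1:247416156-247449108, plus strand), a sensor of membrane damage and ion loss studied mostly in macrophages, had 84, 92 and 96 counts in siKMT2C, against 51, 28 and 42 in siNC. As CPM these were 5.14, 5.91 and 5.90 in siKMT2C and 2.92, 1.94 and 2.37 in siNC, with a clear gap between the groups. NLRP3 rose 2.33-fold in siKMT2C (95% interval 1.63 to 3.35), with means of 5.65 ± 0.442 CPM in siKMT2C and 2.41 ± 0.491 CPM in siNC (SD, n = 3 each). Its log2 fold change of 1.22 (SE 0.23, edgeR adjusted p = 0.0464) ranked 213th by p among the 226 genes called, close to the threshold. The change was larger than that of 98.0% of all genes tested. The direction held in all 17 other settings (1.09 to 1.38), but the call was lost in each fit that left out 1 library: leaving out siKMT2C replicates 1, 2 and 3 gave edgeR adjusted p of 0.171, 0.166 and 0.128, and leaving out siNC replicates 1, 2 and 3 gave 0.0838, 0.176 and 0.0503. It was also lost without replicate 3 of both groups (edgeR adjusted p = 0.0770) and against a 1.5-fold minimum (edgeR adjusted p = 0.332). Counting error alone over 272 counts in siKMT2C and 121 in siNC gives a ratio of 2.32 with an exact 95% interval of 1.86 to 2.90.

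NLRP1 (ENSG00000091592, chr17:5499427-5619424, minus strand), the keratinocyte sensor, stood at 64.4, 58.5 and 67.0 CPM in siKMT2C, against 58.9, 62.9 and 82.7 CPM in siNC. The groups overlapped, and siNC replicate 3 was the highest library. The log2 fold change was -0.11 (SE 0.16, 95% interval -0.48 to 0.27, edgeR adjusted p = 0.796), and its sign turned without siNC replicate 3 (0.048) and after the GC and length correction (0.031). NLRP10 (ENSG00000182261, chr11:7959424-7965426, minus strand), an NLR protein that lacks the leucine-rich repeats of the other sensors, had 19, 27 and 33 counts in siKMT2C, against 21, 11 and 21 in siNC. Its siKMT2C replicate 1, at 1.16 CPM, lay inside the siNC range. NLRP10 had a log2 fold change of 0.63 (SE 0.34, 95% interval -0.15 to 1.42, edgeR adjusted p = 0.401), so a rise beyond 2-fold and no change both lie inside the interval.

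CASP1 (ENSG00000137752, chr11:105025443-105035250, minus strand), the protease that inflammasomes activate, stood at 53.9, 56.2 and 47.1 CPM in siKMT2C, against 52.9, 53.0 and 40.2 CPM in siNC. The groups overlapped, with replicate 3 lowest in both. The log2 fold change was 0.11 (SE 0.16, 95% interval -0.26 to 0.47, edgeR adjusted p = 0.793), with a sign that turned without siNC replicate 3 (-0.023). CASP4 (ENSG00000196954, chr11:104942866-104969436, minus strand), which binds bacterial lipopolysaccharide inside the cell and cuts gasdermin D without a separate sensor, stood at 55.0, 45.0 and 48.8 CPM in siKMT2C, against 37.7, 41.7 and 39.0 CPM in siNC. Every siKMT2C library was above every siNC library. CASP4 had a log2 fold change of 0.33 (SE 0.14, 95% interval 0.02 to 0.64) and did not pass over all genes (edgeR adjusted p = 0.269, unadjusted p = 0.0403). GSDMD (ENSG00000104518, chr8:143553207-143563062, plus strand), the pore former, stood at 10.6, 8.35 and 8.85 CPM in siKMT2C, against 5.72, 8.38 and 10.6 CPM in siNC. The groups overlapped, and the log2 fold change was 0.17 (SE 0.25, 95% interval -0.40 to 0.75, edgeR adjusted p = 0.783). It was -0.033 without siNC replicate 1.

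**Figure D2:**
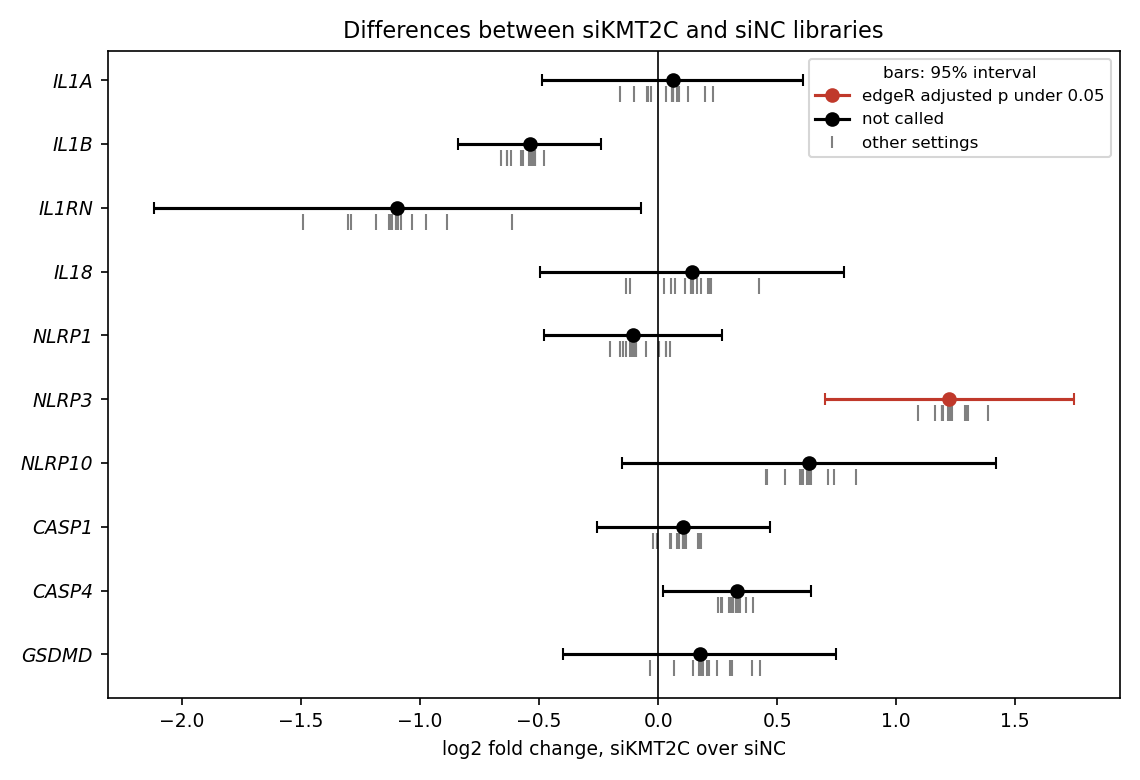
Log2 fold change of each gene, siKMT2C over siNC, with its 95% interval from the edgeR fit, and the value under each other setting as a grey tick. Only NLRP3, in red, passed; the intervals of IL1B, IL1RN and CASP4 also lie to 1 side of 0.

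The base composition of the transcripts tracked how libraries of one group differed from each other. Over 12462 tested coding genes, the deviation of siNC replicate 3 from the mean of the libraries correlated with transcript GC content (Pearson r = 0.64, across genes, which are not independent replicates), against -0.41 and -0.15 in siNC replicates 1 and 2. The siKMT2C libraries gave -0.12, -0.38 and 0.29. Among the 10 genes, siNC replicate 3 stood at 58.7% of the mean of the other 2 siNC libraries for IL1A (39.1% GC), 48.6% for IL18 (42.3% GC) and 76.0% for CASP1 (41.0% GC). It stood at 136% for NLRP1 (55.8% GC) and 150% for GSDMD (63.8% GC), and at 97.4% for NLRP3 (51.4% GC), 98.2% for CASP4 (46.2% GC) and 85.3% for IL1B (45.7% GC). The order of GC content was not followed throughout. IL18 lay below IL1A and CASP1, which have less GC, and NLRP3 lay just below CASP4. The remaining members stood at 61.2% for IL1RN (50.6% GC) and 120% for NLRP10 (49.0% GC). After correction for GC content and length, the log2 fold change was 1.29 for NLRP3 (edgeR adjusted p = 0.0132), -0.63 for IL1B and -1.13 for IL1RN (edgeR adjusted p = 0.159). Of the 10 genes NLRP3 and IL1B passed after that correction, which was fitted on the 12462 coding genes alone. Of those coding genes, 793 were called higher and 615 lower after it, against 96 higher and 116 lower in the uncorrected fit of all 15063 genes.

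Levels were set against each other per length, as CPM per kilobase of the coding transcript. For 9 of the 10 genes the deposited FPKM values divide by the sum of all distinct annotated exons, which is 7.57 times the coding transcript for GSDMD and 1 time for IL1A. For NLRP3 they divide by 11239 bases, against 14544 bases of distinct exons. They therefore were not used to rank these genes. IL1A was by far the most abundant, at 378.4 ± 77.9 per kb in siKMT2C and 362.8 ± 103.0 per kb in siNC (SD, n = 3 each), above 99.0% of tested coding genes. IL18 followed at 89.1 ± 9.79 per kb in siKMT2C and 80.7 ± 31.3 per kb in siNC, and IL1B at 34.3 ± 1.59 per kb in siKMT2C and 49.8 ± 4.68 per kb in siNC. CASP1 (26.2 per kb in siKMT2C, 24.3 in siNC) and CASP4 (23.0 per kb in siKMT2C, 18.3 in siNC) came next, ahead of NLRP1 (13.2 per kb in siKMT2C, 14.2 in siNC) and GSDMD (5.16 per kb in siKMT2C, 4.57 in siNC). The lowest were NLRP3 at 1.35 ± 0.106 per kb in siKMT2C and 0.577 ± 0.118 per kb in siNC, IL1RN at 0.739 ± 0.317 per kb in siKMT2C and 1.59 ± 0.805 per kb in siNC, and NLRP10 at 0.698 ± 0.187 per kb in siKMT2C and 0.446 ± 0.106 per kb in siNC. The order was the same in both groups from IL1A to GSDMD. NLRP3 ranked above IL1RN in siKMT2C and below it in siNC, with ranges apart in each. Neighbours with overlapping ranges were CASP1 and CASP4, and IL1RN and NLRP10, in siKMT2C, and IL18 and IL1B, and NLRP3 and NLRP10, in siNC.

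**Figure D3:**
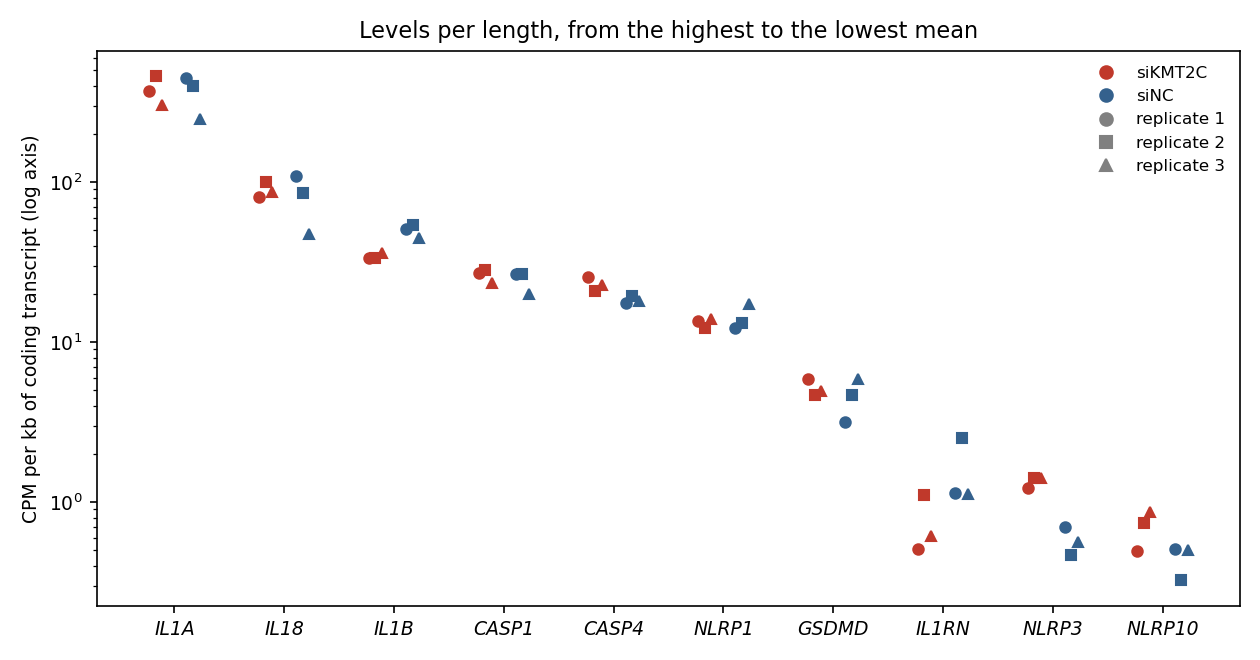
Level of each gene per length, as CPM per kilobase of coding transcript on a log axis, for each library of siKMT2C (red) and siNC (blue), from the highest mean at the left to the lowest at the right. IL1A has a mean of 370.6 per kb over all libraries, with a range of 246.9 to 460.2 per kb. The means of IL1RN, NLRP3 and NLRP10 over all libraries are 1.17, 0.966 and 0.572 per kb.

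Ratios of the 10 genes within a library do not depend on the scaling between libraries, and they are given as descriptions without a test. Deviations of a library that track GC content do not cancel where the genes of a ratio differ in it. Such ratios include IL1A (39.1% GC) over IL1RN (50.6% GC), IL18 (42.3% GC) over IL1B (45.7% GC) and NLRP3 (51.4% GC) over NLRP1 (55.8% GC). The part of GC content in the ratios was not tested, and no share over other gene pairs was taken. NLRP3 over NLRP1 was 0.0916, 0.116 and 0.101 in siKMT2C, against 0.0569, 0.0354 and 0.0329 in siNC, a mean difference of 1.34 on the log2 scale. NLRP1 thus stayed the more abundant sensor in every library. IL1A over IL1RN, agonist over antagonist, was 730, 418 and 499 in siKMT2C, against 390, 158 and 220 in siNC, without overlap (log2 difference 1.16). IL1B over IL1RN was 65.8, 30.4 and 59.1 in siKMT2C, against 44.7, 21.4 and 39.9 in siNC, with overlapping groups (log2 difference 0.54). IL18 over IL1B was 2.42, 2.99 and 2.40 in siKMT2C, against 2.15, 1.58 and 1.06 in siNC, again without overlap (log2 difference 0.76). The agonists thus exceeded the antagonist transcript in all 6 libraries. The groups overlapped for IL1A over IL1B (8.45 to 13.8 in siKMT2C, 5.52 to 8.72 in siNC) and for CASP4 over CASP1 (0.743 to 0.961 in siKMT2C, 0.661 to 0.899 in siNC).

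**Figure D4:**
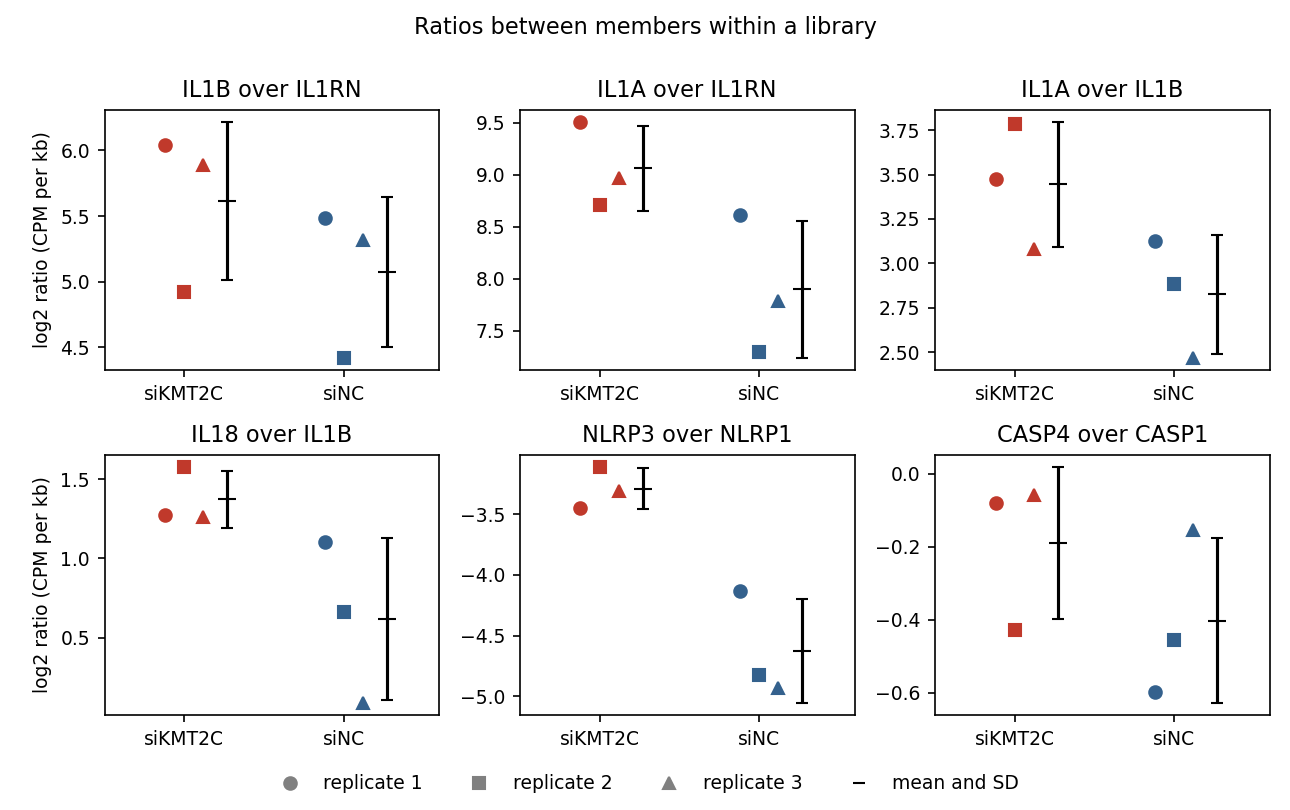
Log2 ratio between 2 genes within each library, from CPM per kilobase, with siKMT2C in red and siNC in blue, the replicate as the symbol, and the mean and SD in black. NLRP3 over NLRP1, IL1A over IL1RN and IL18 over IL1B do not overlap between groups.

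The genes lie in several neighbourhoods. IL1A, IL1B and IL1RN are part of the IL-1 cluster on chromosome 2 (chr2:112773915-113134016, 360.1 kb), whose 15 entries included no other gene with enough counts to test. Over all 6 libraries IL36G had 8 counts, IL36B and IL37 had 1 each, and IL36A, IL36RN and IL1F10 had none. The 3 tested neighbours did not share a sign, with log2 fold changes of 0.06 for IL1A, -0.54 for IL1B and -1.10 for IL1RN. CASP4 and CASP1 lie 92.4 kb from end to end (chr11:104942866-105035250), and CASP5, which lies with them, had no count in any library.

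An siRNA can lower transcripts that carry matches to its seed, the few bases at its 5′ end that pair first. The sources used here do not give the siRNA sequences. An earlier scan of these data had picked out a pair of 7-base words: transcripts with TCGGAGA tended to be higher in siKMT2C, and transcripts with GTATAAA in the 3′ UTR lower. Each gene was searched in the coding sequence and 3′ UTR of a single coding transcript, and not in its 5′ UTR or other transcripts. Within these regions TCGGAGA occurs 3 times in NLRP3 (ENST00000336119.7) and in no other of the 10 genes. GTATAAA is in the 3′ UTR of none and once in the coding sequence of IL18. The NLRP3 sites, shown because they lie in the one gene of the 10 that passed, read 5′ to 3′ in the sense strand of the GENCODE 29 transcript, with the word in capitals.
NLRP3 coding sequence, site 1: ggctgtaacatTCGGAGAttgtggttggg
NLRP3 coding sequence, site 2: aggcaacactcTCGGAGAcaaggggatca
NLRP3 3′ UTR, site 1: ccggtggagtgTCGGAGAagagagcttgc

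At least 1 copy of TCGGAGA was present in the searched regions of 1200 of 12462 tested coding genes (9.63%). This included 29 of the 96 coding genes called higher and 8 of the 116 called lower. The median log2 fold change was -0.01 in the 11262 genes without a copy, 0.04 in 1096 with 1 copy, 0.07 in 90 with 2 and 0.23 in 14 with 3 or more. Of those 14, NLRP3 (1.22) and ZNF616 (1.77) were called higher, OGFR with 7 copies had 1.44 (edgeR adjusted p = 0.127), and values reached down to -0.74 for MAPK8IP1. The words were chosen on these same data, and whether either matches the seed of an siRNA used here, and its part in the NLRP3 rise, was not tested.

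Among 9 receptors and decoys, 7 were tested, 1 was called higher and none lower, beside 1.5% of all genes tested. The unadjusted edgeR p was under 0.05 for 3 of the 7, beside 16.9% of all genes tested. The groups did not overlap for 4 of the 7, all higher in siKMT2C, beside 24.1% of all genes tested. Log2 fold changes were positive for 5 and negative for 2, with a median of 0.47. The gene called was IL1RL1, the receptor for IL-33 (chr2:102311502-102352037), with 13, 20 and 12 counts in siKMT2C, against 2, 2 and 2 in siNC (log2 fold change 2.88, SE 0.48, edgeR adjusted p = 0.0347). Its few counts came from a gene that overlaps IL18R1 on the same strand. The call was lost in each fit that left out 1 library (edgeR adjusted p 0.0528 to 0.148). It was also lost without replicate 3 of both groups (edgeR adjusted p = 0.0568) and against a 1.5-fold minimum (edgeR adjusted p = 0.139). IL1RL1 had an adjusted p in 15 of the 17 other settings. The missing ones were DESeq2 and the filter of 1 CPM in at least 3 libraries. IL18BP, the soluble decoy of IL-18, was at 5.78 ± 0.793 CPM in siKMT2C and 3.47 ± 0.572 CPM in siNC (log2 fold change 0.74, SE 0.22, edgeR adjusted p = 0.145). IL1R1, the signalling receptor of IL-1α and IL-1β, was at 12.1 ± 0.362 CPM in siKMT2C and 8.70 ± 1.88 CPM in siNC (log2 fold change 0.47, SE 0.20, edgeR adjusted p = 0.280). Neither of them passed.

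None of the 10 tested signalling genes downstream of the receptor passed, beside 1.5% of all genes tested. Their median log2 fold change was -0.07. The unadjusted edgeR p was under 0.05 for 2 of the 10, beside 16.9% of all genes tested. Without overlap between the groups, 1 was higher and 2 were lower in siKMT2C, beside 24.1% of all genes tested. The smallest p-values were those of TAB3, a partner of the kinase TAK1 (-0.82, SE 0.21, edgeR adjusted p = 0.103), IRAK2 (0.33, SE 0.14, edgeR adjusted p = 0.282) and the adaptor MYD88 (-0.24, SE 0.12, edgeR adjusted p = 0.365). Among 11 other sensors and the adaptor, 6 were tested and none was called, with a median of -0.04; AIM2, NLRP6 and NLRP12 had no count. PYCARD, the ASC adaptor that joins sensors to caspase-1, was at 60.6 ± 11.3 CPM in siKMT2C and 72.3 ± 18.5 CPM in siNC (log2 fold change -0.25, SE 0.21, edgeR adjusted p = 0.609). NLRP2, higher in siKMT2C without overlap, had a log2 fold change of 0.27 (SE 0.13, edgeR adjusted p = 0.335). NAIP had -0.25 (SE 0.29, edgeR adjusted p = 0.729).

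Among 17 inflammasome regulators, 11 were tested and none was called (1 had an unadjusted edgeR p under 0.05), with a median of 0.06. Without overlap, 1 of the 11 was higher and 1 lower in siKMT2C, beside 24.1% of all genes tested. NEK7, which binds NLRP3 during its activation, was at 78.9 ± 9.16 CPM in siKMT2C and 125.3 ± 28.9 CPM in siNC, without overlap (log2 fold change -0.67, SE 0.19, edgeR adjusted p = 0.139). The caspase-1 decoy CARD16 (0.38, SE 0.23) and the protease DPP8, which restrains NLRP1 (-0.24, SE 0.17), had edgeR adjusted p of 0.459 and 0.542. TAB3, NEK7 and DPP8 each hold 2 copies of GTATAAA, a word chosen on these same data, in the 3′ UTR. Over the 304 tested coding genes with 2 copies there, the median log2 fold change was -0.20 and 28.0% were positive. The part of this word in the values of TAB3, NEK7 and DPP8 was not tested. SERPINB9, a protease inhibitor left out by the filter, had no count in siKMT2C, against 10, 14 and 6 counts in siNC. Set against a floor of 3 counts over the siKMT2C group, the siNC level was 9.70-fold higher. That value leaves out the error of the siNC counts and the spread between libraries, so it is not a lower bound. Untested pathway genes with any count summed to 1 to 43 counts over the 6 libraries, the most being those of the decoy receptor IL1R2. CASP14, a caspase of cornifying keratinocytes (-2.31, SE 0.49, edgeR adjusted p = 0.0668), and the apoptosis initiator CASP9 (-1.01, SE 0.25, edgeR adjusted p = 0.0926) did not pass. Neither did any of 6 tested gasdermins and lysis genes, led by p by GSDMA (0.53, SE 0.29), PJVK (-0.56, SE 0.45) and NINJ1 (-0.29, SE 0.27), with edgeR adjusted p from 0.401 to 0.658 (none had an unadjusted p under 0.05).

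**Figure D5:**
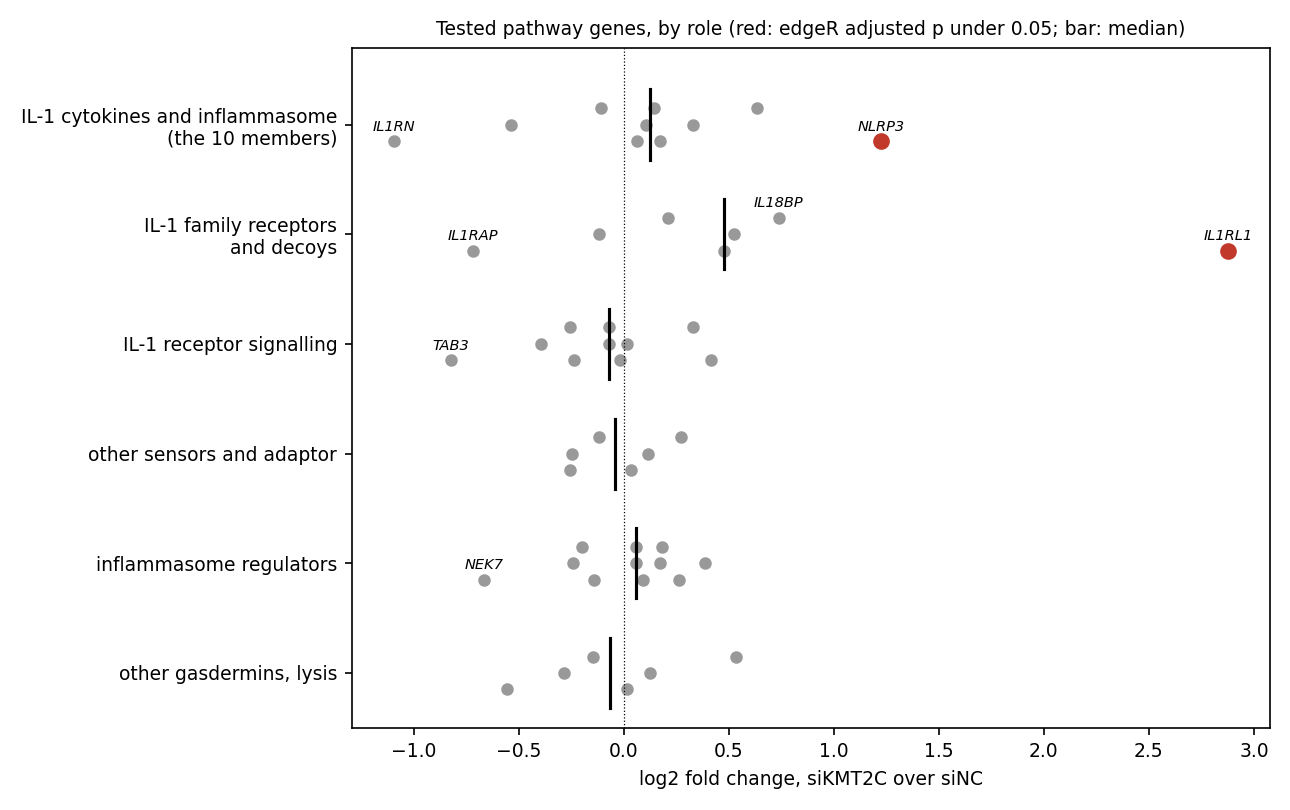
Log2 fold change, siKMT2C over siNC, of the 10 genes and of the tested receptors, signalling genes, other sensors, regulators and gasdermins, in rows by role, with the row median as a bar and genes called by edgeR in red. NLRP3 and IL1RL1 were called, both higher in siKMT2C, while row medians lie between -0.07 and 0.47.

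Interferon-stimulated genes were listed as a neighbouring response: of 36 tested none was called, beside 1.5% of all genes tested. The unadjusted edgeR p was under 0.05 for 15 of the 36, beside 16.9% of all genes tested. The groups did not overlap for 12 of the 36, all lower in siKMT2C, beside 24.1% of all genes tested. Log2 fold changes of the 36 genes were positive for 6 and negative for 30, with a median of -0.36. Their mean level relative to the 6-library mean, on the log2 CPM scale, was -0.27, -0.29 and 0.01 in siKMT2C and 0.32, 0.25 and -0.02 in siNC. Replicate 3 of both groups thus lay near the middle. The part of this list in the values of the 10 genes was not tested.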

How the data were processed

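RNA sequencing was analysed from 3 siKMT2C and 3 siNC libraries, grouped by their titles. The authors deposited whole-number read counts per gene and FPKM in 1 table, per the file headers. CASAVA 1.8 and TopHat2 2.0.6 were used, per the submitters' processing notes. These notes name mm10, but the identifiers are human Ensembl genes. The sources used here give no counting program, annotation, strand setting or human build, so reads of overlapping genes cannot be assigned by strand. Coordinates and transcripts come from GENCODE 29 (GRCh38), which held 58039 of 58302 identifiers.

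Counts were tested with edgeR 4.0.16 in R 4.3.3 (filterByExpr, TMM scaling, robust quasi-likelihood F test, two-sided). P-values were adjusted over all 15063 genes (Benjamini-Hochberg), with calls at adjusted p under 0.05. Standard errors were |log2 fold change| over the square root of the F statistic, and 95% intervals came from the same fit. The deposited FPKM is the count divided by library size and by a gene length. That length equalled the sum of distinct exons within 1 base in 92.2% of 15030 genes, including 9 of the 10 members, NLRP3 being the exception. Levels between genes and ratios therefore use CPM per kilobase of the coding transcript in place of the planned FPKM. Intervals on summed counts cover counting error only.

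Other tests were DESeq2 1.42.0, limma-voom (limma 3.58.1), glmTreat against a 1.5-fold minimum and a fit with the replicate number as a block. Other scalings were RLE factors and plain library size, and other filters were none and 1 CPM in at least 3 libraries. Each library was also left out in turn. Those added after seeing the data were a loess correction for GC content and length (span 0.3), the same with the block, and leaving out replicate 3 of both groups. The 10 members, the pathway and marker lists and the 7-base words were chosen with earlier results of these data known. The genes named are KMT2C, all members, each gene of a pathway list that was called, and the 3 with the smallest p in each list; 1 gene that this rule takes is not reported here. Untested genes are given by their counts, and ZNF616, OGFR, MAPK8IP1, COL1A1 and DCN were named after their values were seen.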

Additional observations from a re-analysis of the deposited data

How the results depend on the processing

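The count of genes called, 226 in all, was 805 with DESeq2, 968 with the replicate block, 18 against a 1.5-fold minimum, 16 to 620 when 1 library was left out (620 without siNC replicate 3), 1408 after the GC and length correction (12462 coding genes tested), 1439 with the block and that correction, and 648 without replicate 3 of both groups. Of the 10 members, 1 was called, against 2 with DESeq2, 2 with the replicate block, 0 against the 1.5-fold minimum, 0 or 1 when 1 library was left out, 2 after the correction and 3 with the block and the correction. Other scalings, other filters and limma-voom left both counts within 1.5 times. The NLRP3 log2 fold change kept its sign but its call was lost against the 1.5-fold minimum (1.22), without replicate 3 of both groups (1.16) and in each fit without 1 library (1.09 to 1.38). IL1B passed with DESeq2 (-0.54), the block (-0.54), the correction (-0.63), both (-0.64), without replicate 3 of both groups (-0.66) and, among values of -0.62 to -0.48 without 1 library, without siNC replicate 3. IL1RN passed with block and correction (-1.12) and ranged from -1.49 to -0.61 without 1 library.

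Signs turned for values near 0. IL1A was -0.047 after the correction, -0.042 with block and correction, -0.029 without replicate 3 of both groups and -0.16 to 0.23 without 1 library. IL18 was -0.12 without replicate 3 of both groups and -0.14 to 0.43 without 1 library. NLRP1 was 0.031 with the correction, 0.033 with block and correction, 0.0051 without replicate 3 of both groups and -0.20 to 0.048 without 1 library. CASP1 was -0.0060 with the correction, -0.0053 with block and correction, and -0.023 to 0.18 without 1 library. GSDMD was -0.033 to 0.39 without 1 library. The causes were not tested. CASP4 and NLRP10 kept their sign and were not called in any of the 17 settings. The replicate numbers share no stated culture or day: deviations of same-numbered libraries correlated at 0.02, 0.11 and 0.39 across genes, and siKMT2C replicates 1 and 2 correlated best with another number. IL1RN, NLRP3 and NLRP10 rest on 11 to 96 counts a library, which limits the size of change that could be seen.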
